A study of Mus musculus with 12 samples.

Results

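Expression of 9 genes that move cholesterol and other lipids into, through and out of cells was examined in the ageing mouse hippocampus. They were chosen by name: Apoe, Lpl, Abca1, Abcg1, Lrp1, Soat1, Plin2, Nceh1 and Npc2. All 9 were found among the 29957 named entries of the microglia table and the 14663 of the hippocampus table, and all 9 passed the filters on low values that left 10663 and 13491 genes to test. The data are RNA sequencing of 12 samples from C57BL/6 mice with no allele or treatment named. Microglia, the brain's own macrophages, were taken from the hippocampus at 3 months (n = 3) and 24 months (n = 3) of age. Whole hippocampus came from mice of 6 months (n = 3) and 18 months (n = 3). The labels give neither the sex of the mice nor the way the microglia were isolated, and do not say whether each sample is 1 mouse. P-values therefore measure the spread between these samples, which may be technical.

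The sterol ring of cholesterol cannot be degraded in the brain, and glia pass it on as lipoprotein particles built around apolipoprotein E. A phagocyte that takes up lipid sends cholesterol through the lysosome, stores the surplus as esters in lipid droplets, and releases it again to the membrane, where ABC transporters load it onto apolipoprotein E. Apoe, Abca1, Abcg1 and Lpl are textbook targets of the liver X receptors (LXR), which sense oxidised sterols. In the brain Apoe is made mainly by astrocytes, and microglia raise it in injury and disease.

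In old microglia the carrier Apoe and the lipase Lpl had higher levels than in young microglia, while the other 7 genes had older and younger libraries at overlapping levels. Apoe averaged 4.61 times and Lpl 21.7 times the young level. Neither change passed edgeR's quasi-likelihood test after adjustment over all genes, and both passed DESeq2. In whole hippocampus Apoe averaged 1.22 times the younger level and no member passed. All samples are bulk RNA, so fewer cells of a type and less RNA per cell cannot be told apart.

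Microglia levels are given in CPM, the gene's count after each library is scaled to the same total. The libraries held 8072855 to 14226478 estimated counts, and the 10 microglial markers (P2ry12, Tmem119 and others) were present in every one. Their summed level was 66855.7 to 70652.7 CPM at 3 months and 48143.7, 49021.1 and 63753.3 CPM in 24 month replicates 1, 2 and 3. At 24 months, replicates 1 and 2 stood apart from replicate 3: the sum of 15 immediate early genes was 33535.1 and 35591.0 against 1653.1 CPM, with 1243.4 to 2088.4 CPM at 3 months. edgeR called 0 of 10663 genes at an adjusted p under 0.05 (0.0%), with 375 genes higher and 215 lower at an unadjusted p under 0.05. DESeq2, run on the same counts, called 192 genes higher (1.55% of those with an adjusted p) and 56 lower.

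The promoters of Apoe and Abca1 are shown because both genes are LXR targets in 1 export route, and Apoe separated the ages in microglia where Abca1 did not. The sequences are RefSeq's, on build GRCm38.p6, and are the 250 bases before the annotated start, 5′ to 3′ on the minus strand. The Apoe stretch is chr7:19699189-19699438 and the Abca1 stretch is chr4:53159896-53160145. Capitals mark motif matches.
Apoe: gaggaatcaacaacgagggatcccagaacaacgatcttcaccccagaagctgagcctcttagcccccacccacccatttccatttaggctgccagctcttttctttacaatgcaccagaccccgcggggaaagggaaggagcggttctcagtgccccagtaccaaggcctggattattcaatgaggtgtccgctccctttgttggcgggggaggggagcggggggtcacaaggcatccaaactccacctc
Abca1: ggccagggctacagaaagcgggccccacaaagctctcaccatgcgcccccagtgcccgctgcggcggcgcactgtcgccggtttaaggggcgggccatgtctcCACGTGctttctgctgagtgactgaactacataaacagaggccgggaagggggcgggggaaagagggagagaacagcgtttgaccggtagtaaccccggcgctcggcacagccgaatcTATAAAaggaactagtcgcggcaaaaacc
The Apoe stretch has no capitals, as it held none of the motifs searched. In the Abca1 stretch the E-box CACGTG starts 147 bases and the TATA box TATAAA 29 bases before the start. The motifs were searched on both strands of windows that reach from 250 bases before to 50 bases after a start. RefSeq windows were matched for 7 of the 9 members, all but Lpl and Abcg1. The direct repeat bound by LXR, written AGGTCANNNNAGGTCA and searched with at most 2 mismatches, was in 0 of 7 members and in 3.02% of all 32851 windows. The E-box, which overlaps none of the other matches, was in 3 of 7 (Abca1, Plin2 and Nceh1) and in 7.15% of all windows. TATAAA was in 2 of 7 (Abca1 and another Apoe window) and in 13.6%. The PU.1 core GAGGAAGT was in 1 of 7 (Nceh1) and in 3.20%, and the AP-1 site TGANTCA was in 0 of 7 and in 7.81%. A match is a description of the letters only. Repeats with more mismatches, or outside these windows, were not counted, so 0 matches does not mean that no LXR site is present.

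Apoe, the lipid carrier (chromosome 7, 19696109 to 19699188, minus strand, GENCODE annotation of GRCm38), stood at 979.4, 792.2 and 663.2 CPM in the 3 young microglia libraries and at 3480.1, 2868.2 and 4880.9 CPM in the 3 old ones. All 3 old libraries lay above all 3 young ones, and the lowest old level was 2.93 times the highest young level. The log2 change was 2.21 ± 0.26 (SE; 95% interval 1.60 to 2.81), with an unadjusted p of 3.85e-05, the smallest of all tested genes, and an adjusted p of 0.410 (edgeR). Over the alternatives of the analysis the adjusted p ranged from 4.01e-08 to 0.958. DESeq2 gave a log2 change of 2.19 ± 0.33 (SE) with an adjusted p of 4.01e-08. In the authors' deposited table the log2 change was 2.25 ± 0.34 (SE) with an adjusted p of 5.61e-08. That table calls 186 of 12083 genes higher at 24 months (1.54%). Without 24 month replicate 3, which held the highest Apoe level, the change was 1.95 ± 0.20 (SE) and passed edgeR's test with an adjusted p of 0.0167.

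Apoe transcripts took 0.0685% to 0.0944% of the counts of a young library and 0.284% to 0.498% of an old one. Per length it was the most abundant of the 9 members in every library, at 1183.2 ± 203.9 TPM (a length-corrected share of the library's transcripts; SD, n = 3) when young and 5663.1 ± 1763.3 TPM (SD, n = 3) when old. By mean TPM over the 6 libraries it ranked 21 among all tested genes.

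Lpl, which splits the triglycerides of lipoproteins (chromosome 8, 68880491 to 68907448, plus strand), was at 2.76, 0.748 and 5.24 CPM in the young libraries and at 94.4, 71.8 and 23.8 CPM in the old ones. The groups did not overlap, and the old libraries differed among themselves, with replicate 3 far below the other two. The young values rest on 37, 6 and 77 estimated counts, the old ones on 892, 712 and 251. The log2 change was 4.42 ± 0.96 (SE; 95% interval 2.19 to 6.66), with an adjusted p of 0.539 (edgeR). It was 4.42 ± 0.85 (SE) with an adjusted p of 6.30e-05 by DESeq2, and 4.70 ± 0.83 (SE) with an adjusted p of 9.14e-06 in the authors' deposited table. The adjusted p ranged from 6.30e-05 to 1 over the alternatives.

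**Figure D1:**
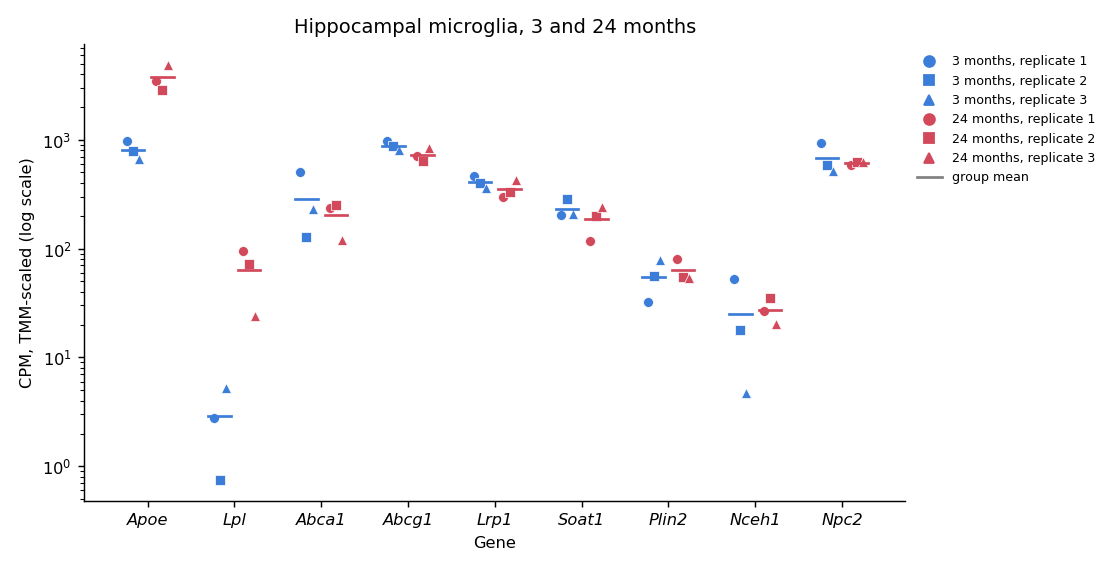
Level of each gene in each microglia library, as TMM-scaled CPM on a log axis, with 3 month libraries in blue, 24 month libraries in red, the replicate number as the marker shape and group means as lines. Apoe and Lpl are the only genes of the 9 whose red points all lie above the blue ones.

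Old libraries lay wholly above young ones in 2 of the 9 members, Apoe and Lpl, and in 7.26% of all tested genes. They lay wholly below in 0 of the 9 and in 6.18% of all tested genes. The 2 members that did not overlap did not share the order of their old libraries. Apoe was highest in 24 month replicate 3 and Lpl was lowest there.

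Levels of other cell types and of stimulated genes also differed between the old libraries. Lpl was highest in replicates 1 and 2, the libraries with the high sums of immediate early genes. Apoe was highest in replicate 3, where that sum lay within the range of the young libraries. The part of stimulation in the Apoe and Lpl results was not tested. Monocyte and neutrophil markers summed to 2752.5, 49.9 and 3.70 CPM in old replicates 1, 2 and 3 and to 1.97 to 9.72 CPM when young. In replicate 1 most of the sum was S100a8 (1289.3 CPM), Ngp (491.1), Ltf (338.3), S100a9 (319.3) and Camp (286.4). Ly6c2, Ccr2 and Plac8 were at 0.106, 0.529 and 0 CPM there. In replicate 2 the highest of the list were Ccr2 (21.8 CPM) and S100a8 (21.5 CPM). Border macrophage markers summed to 4.87, 22.2 and 0.949 CPM in the old libraries and to 1.25 to 6.33 CPM in the young ones. Lyve1, one of that list, was at 0 in all 6. In replicate 3 both sums were within or below the young range. The part of these cells in the Apoe and Lpl results was not tested. Astrocyte markers, which belong to another Apoe source, summed to 130.3 to 274.3 CPM when young and to 345.8, 463.4 and 332.7 CPM when old. The old sums lay above the young ones, as did 2 of the 10 genes. Most of the sum was Slc1a3, at 110.1 to 246.2 CPM when young and 284.9 to 383.7 CPM when old, and Aldoc was at 0.149, 10.8 and 5.65 CPM when young and 39.6, 44.3 and 18.0 CPM when old. Gfap was at 13.7, 0 and 0 CPM and then at 0, 15.4 and 12.8 CPM. Gja1, Aldh1l1 and Gjb6 were seen in 24 month replicate 2 alone, and Aqp4 and Mlc1 were at 0 in all 3 old libraries. The part of astrocyte RNA in the Apoe result was not tested. The sums of vessel markers were also higher in all old libraries than in all young ones, though no single endothelial or mural gene was. Endothelial markers summed to 23.5 to 45.5 CPM when young and to 51.9, 139.6 and 66.4 CPM when old. Mural markers summed to 0.299 to 0.748 CPM when young and to 288.2, 38.8 and 0.759 CPM when old, with Pdgfrb and Kcnj8 at 0 in all 6 libraries. The mural sum of old replicate 3 was thus barely above the highest young sum. Their part in the Apoe and Lpl results was not tested.

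**Figure D2:**
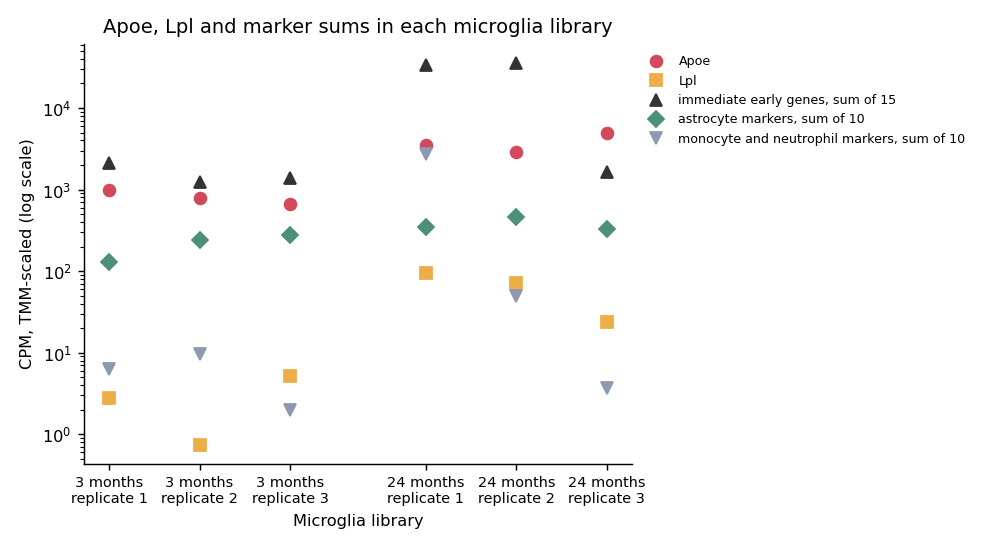
Apoe, Lpl and summed marker levels in each microglia library, as TMM-scaled CPM on a log axis. Immediate early genes reach 33535.1 and 35591.0 CPM in 24 month replicates 1 and 2, while Apoe peaks at 4880.9 CPM in replicate 3 and Lpl is lowest there among the old libraries.

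The efflux transporters had lower means at 24 months, and neither passed the test. Abca1, which loads cholesterol onto lipid-poor apolipoproteins, was at 502.3, 128.7 and 229.9 CPM in young and at 238.0, 252.7 and 118.9 CPM in old microglia. The groups overlapped, with the highest of the 6 levels in 3 month replicate 1 and the lowest in 24 month replicate 3. Its log2 change was -0.50 ± 0.51 (SE; 95% interval -1.68 to 0.69; edgeR, adjusted p = 0.993), and without 3 month replicate 1 it was 0.18 ± 0.42 (SE). Abcg1, which exports cholesterol to formed lipoprotein particles, was steadier, at 962.7, 871.0 and 802.8 CPM when young and 708.7, 637.1 and 840.4 CPM when old. Only 24 month replicate 3 reached the young range. The change was -0.27 ± 0.18 (SE; 95% interval -0.69 to 0.15; edgeR, adjusted p = 0.988).

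Lrp1, the endocytic receptor that takes up apolipoprotein E particles, was at 464.3, 401.7 and 357.6 CPM in young microglia and at 295.5, 328.1 and 429.1 CPM in old ones. Replicates 1 and 2 of the old group lay below all young libraries and replicate 3 among them. The change was -0.22 ± 0.21 (SE; 95% interval -0.71 to 0.27; edgeR, adjusted p = 0.993).

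The storage genes also overlapped between ages. Soat1, which joins cholesterol to fatty acids, was at 202.3, 287.4 and 209.0 CPM when young and 118.0, 199.1 and 239.9 CPM when old. Old replicates 1 and 2 lay below all young libraries and replicate 3 among them, with a change of -0.33 ± 0.30 (SE; edgeR, adjusted p = 0.993). Plin2, a coat protein of lipid droplets, was at 32.2, 55.7 and 78.2 CPM when young and 80.9, 55.1 and 53.3 CPM when old. Its highest young and highest old libraries were nearly level. The change was 0.19 ± 0.44 (SE; 95% interval -0.84 to 1.21; edgeR, adjusted p = 0.998).

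The genes that free stored or engulfed cholesterol overlapped as well. Nceh1, a hydrolase of cholesterol esters, was the most scattered, at 53.0, 17.7 and 4.70 CPM when young and 26.7, 35.3 and 20.3 CPM when old, and its change of 0.13 ± 0.92 (SE) has a 95% interval of -2.02 to 2.27 (edgeR, adjusted p = 0.998). That interval spans more than a 4-fold change in either direction. Npc2, which hands cholesterol to the lysosomal membrane protein NPC1, was at 935.0, 582.3 and 519.5 CPM when young and at 587.5, 623.1 and 617.7 CPM when old. Its old libraries were within a narrow band and 1 young library lay well above. The change was -0.16 ± 0.24 (SE; 95% interval -0.73 to 0.41; edgeR, adjusted p = 0.998). In the authors' deposited table the adjusted p of these 7 genes ran from 0.656 to 0.980.

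The 7 genes other than Apoe and Lpl had a median log2 change of -0.22, against 0.01 over all tested genes, and 5 of them were lower by mean in old microglia. In 5 of the 9 members (Abca1, Abcg1, Lrp1, Nceh1 and Npc2) the highest of the 6 levels was in 3 month replicate 1. Without that library the changes of Abca1 and Npc2 turned positive (0.18 and 0.14) and that of Plin2 turned negative (-0.09).

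By TPM, which accounts for transcript length, the order of the members' levels in young microglia was Apoe, Npc2, Abcg1, Lrp1, Soat1, Plin2, Abca1, Nceh1 and Lpl. Npc2 stood at 295.4 ± 87.8, Abcg1 at 214.7 ± 13 and Lrp1 at 129.9 ± 25.4 TPM (SD, n = 3), and no library of one reached the range of the next. Soat1 (81.9 ± 17 TPM) lay below every library of Lrp1 and overlapped with Plin2 (57.6 ± 36.9 TPM), which overlapped with Abca1 (39.4 ± 25.8 TPM; SD, n = 3 each). Abca1 overlapped with Nceh1. Lpl, at 1.53 ± 1.10 TPM, lay below every library of Nceh1 (11.2 ± 7.66 TPM; SD, n = 3). In old microglia Lpl averaged 39.0 ± 21.5 TPM (SD, n = 3) and stood between Plin2 (67.0 ± 14 TPM) and Abca1 (35.1 ± 16.6 TPM), overlapping with Abca1 and Nceh1. The order of the other 8 was the same at both ages.

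The transcripts behind a gene's counts also differed between libraries. The deposited average transcript length, weighted by the abundance of each transcript, was 10088.6 to 10141.4 bases for Abca1 in 4 libraries but 5944.1 bases in 24 month replicate 1 and 8851.2 bases in replicate 3. GENCODE lists 2 Abca1 transcripts, a coding one of 10262 bases and a non-coding one of 775 bases. Soat1 was at 1904.1 bases in 24 month replicate 1 and at 3777.7 to 4675.1 bases elsewhere. Nceh1 ranged from 1295.6 to 4344.5 bases and Plin2 from 1180.3 to 1790.7 bases. The old Plin2 libraries lay close together, at 1236.5 to 1323.4 bases. Npc2 (3155.6 to 3201.7 bases) and Abcg1 (5525.1 to 5704.3 bases) were almost constant.

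In 4 of the 9 members (Abca1, Soat1, Plin2 and Nceh1) the longest average was at least 1.5 times the shortest, as it was in 30.2% of all tested genes. Apoe and Lpl were shorter in all old libraries than in all young ones. How many of all tested genes were separated by length in this way was not counted. Apoe went from 952.2 ± 12.1 to 905.2 ± 8.43 bases and Lpl from 2598.9 ± 295.6 to 2218.2 ± 191.7 bases (SD, n = 3 each). With length as an offset in edgeR, the log2 change was 2.26 for Apoe, 4.71 for Lpl, -0.14 for Abca1, -0.11 for Soat1 and 0.40 for Nceh1. No member passed the threshold in that fit.

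**Figure D3:**
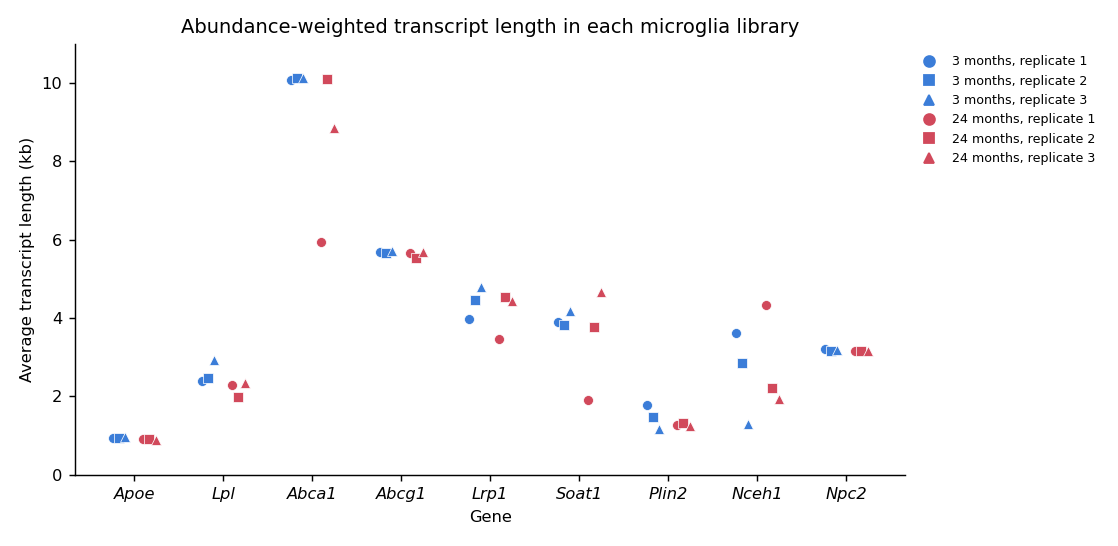
Average transcript length of each gene in kilobases in each microglia library, with 3 month libraries in blue, 24 month libraries in red and the replicate number as the marker shape. Abca1 and Soat1 are lowest at 5944.1 and 1904.1 bases in 24 month replicate 1, while Npc2 and Abcg1 hardly vary.

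Other genes of lipid handling were taken from 7 lists with 118 different genes, of which 76 were tested in microglia. No listed gene passed edgeR's test after adjustment over all genes. By mean, 35 were higher and 41 lower in old microglia, and the median log2 change was -0.14. Old libraries lay wholly above young ones in 5 of the 76 and wholly below in 11, where the shares over all tested genes were 7.26% and 6.18%. At an unadjusted p under 0.05 there were 1 higher and 2 lower.

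Among LXR and its partners, Nr1h2, which encodes LXR beta, was at 89.5 ± 11.8 CPM when young and 85.2 ± 13.7 CPM when old (SD, n = 3 each; log2 change -0.07 ± 0.28, SE). Nr1h3, which encodes LXR alpha, had 5.79 CPM in 3 month replicate 3, was at 0 in the other 5 libraries and was not tested. Insig1, a brake on sterol synthesis, had a change of 1.31 ± 0.65 (SE; edgeR, adjusted p = 0.958), and all its old libraries lay above the young ones. It passed by DESeq2 with a change of 1.30 and an adjusted p of 0.0278. Of 10 tested LXR targets outside the 9 members, 5 had a higher and 5 a lower mean. Lpcat3, which remodels membrane phospholipids, was at 437.3, 520.0 and 445.9 CPM when young and at 282.4, 258.0 and 397.3 CPM when old. All old libraries lay below the young ones, with a change of -0.58 ± 0.22 (SE; edgeR, adjusted p = 0.868).

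Uptake receptors had 6 of 15 tested genes higher by mean. Olr1, a receptor for oxidised lipoproteins, was at 0.299, 0 and 0.136 CPM when young and 2.86, 8.37 and 3.23 CPM when old. It was low in every library, and its change of 4.90 ± 1.46 (SE) had an adjusted p of 0.657 (edgeR) and of 0.00693 (DESeq2). Trem2, a lipid-sensing receptor of microglia, averaged 2415.6 ± 180.0 CPM when young and 1871.7 ± 291.1 CPM when old (SD, n = 3 each), without overlap (change -0.37 ± 0.18, SE; edgeR, adjusted p = 0.952). Clu, another lipid carrier of the brain, was at 0.0746, 0.125 and 3.20 CPM when young and 23.5, 2.42 and 14.5 CPM when old. Its groups overlapped (change 3.55 ± 1.81, SE; edgeR, adjusted p = 0.962), and the change was 6.94 without 3 month replicate 3 and 2.32 without replicate 1 of both ages.

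Of 18 tested genes that hydrolyse lipids or release and transfer sterols, 13 were lower by mean in old microglia, and the median log2 change was -0.30. Lipa, the lysosomal acid lipase, was at 242.8 ± 26.3 CPM when young and 196.4 ± 33.1 CPM when old. Npc1, the partner of Npc2 in the lysosomal membrane, was at 128.2 ± 17.5 and 95.1 ± 10.8 CPM (SD, n = 3 each). Both were lower in all old libraries than in all young ones, with changes of -0.31 ± 0.21 and -0.43 ± 0.24 (SE; edgeR, adjusted p = 0.993 and 0.972). Pla2g15, a lysosomal phospholipase, had a change of -0.60 ± 0.21 (SE; edgeR, adjusted p = 0.804), also without overlap. Of 12 tested droplet and storage genes, 8 had a higher mean (median log2 change 0.47). Acsl4, which activates long-chain fatty acids, had a change of 0.76 ± 0.37 (SE; edgeR, adjusted p = 0.957), with groups that overlapped.

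Among 7 other tested lipid transporters, Abca7 and Abca3 were higher in all old libraries than in all young ones, and Abcg2 was lower. Abca7 was at 21.7 ± 6.63 CPM when young and 48.3 ± 19.0 CPM when old, and Abca3 at 29.2 ± 24.5 and 77.0 ± 18.3 CPM (SD, n = 3 each). Abcg2 was at 68.5 ± 12.3 CPM when young and 53.8 ± 1.61 CPM when old (SD, n = 3 each). None of them passed the test (edgeR, adjusted p = 0.958 for Abca7, 0.972 for Abca3 and 0.993 for Abcg2).

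The genes whose pattern over the 6 microglia libraries was most like that of Apoe were sought among 3445 genes of at least 50 CPM on average. Likeness was the root mean square difference of log2 values after each gene's mean was taken away, with a median of 1.24 over these genes. Ppp1r10 (0.505), the lysozyme gene Lyz2 (0.506), Clip1 (0.522), Trim30a (0.548) and Mau2 (0.567) were nearest. Lyz2 was at 306.6 ± 92.4 CPM when young and 845.4 ± 193.9 CPM when old (SD, n = 3 each). None of these 5 is a lipid gene of the lists. Of the members above that level, Plin2 stood nearest to Apoe, at 1.15, and Abca1 farthest, at 1.47.

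In whole hippocampus the members were measured as the authors' normalized counts, which are not on the scale of the microglia values. The hippocampus holds neurons and all glia. limma called 0 of 13491 genes (0.0%), with 288 higher and 437 lower at an unadjusted p under 0.05. The authors' deposited table, which calls 14 of 11818 genes higher at 18 months (0.118%), holds no member with an adjusted p under 0.05.

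Apoe was at 3017.9, 2829.0 and 3484.1 normalized counts at 6 months and at 3537.3, 4171.7 and 3672.0 at 18 months. All older samples lay above the younger ones, though the lowest older level was only 1.02 times the highest younger one. On the log2(normalized count + 1) scale the change was 0.29 ± 0.12 (SE; 95% interval 0.03 to 0.55), with an unadjusted p of 0.0311 and an adjusted p of 0.89 (limma). The authors' deposited table has 0.29 ± 0.13 (SE) with an adjusted p of 0.618. Apoe was the only member without overlap, against 5.03% of all tested genes with older samples above and 5.93% with older samples below. With TMM scaling its groups overlapped, although the change was still 0.28. Microglial markers summed to 520.8 to 621.1 normalized counts at 6 months and 642.4 to 707.6 at 18 months, also without overlap. Neuronal markers summed to 12955.6 to 14484.3 and 14952.6 to 15212.2, again without overlap. Astrocyte markers summed to 4987.2 to 5460.8 and 4693.4 to 6158.3. The part of these cell types in the Apoe result was not tested.

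**Figure D4:**
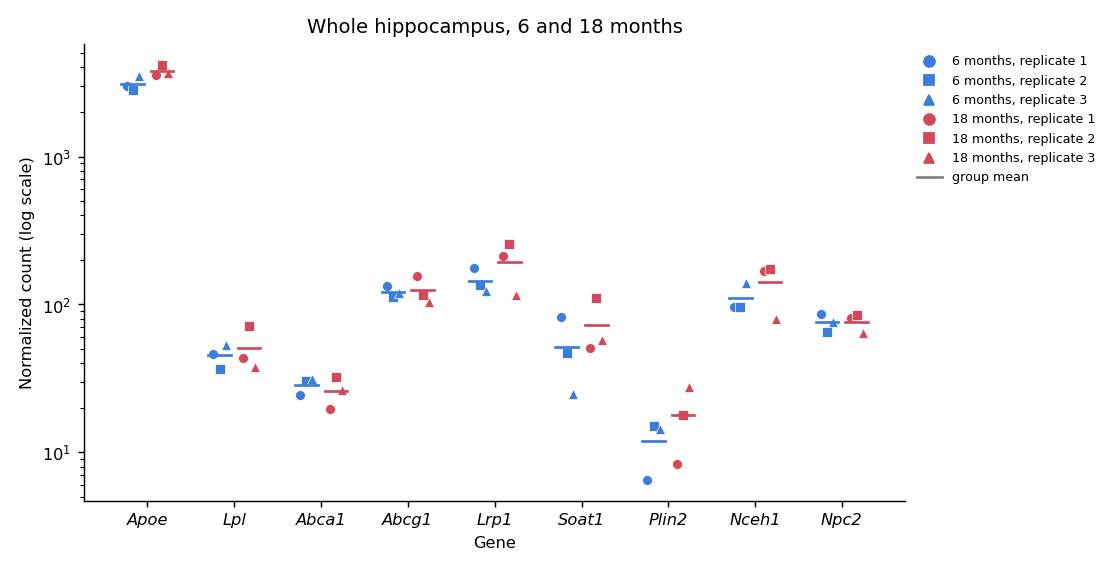
Level of each gene in each hippocampus sample, as normalized counts on a log axis, with 6 month samples in blue, 18 month samples in red, the replicate number as the marker shape and group means as lines. Apoe lies far above the other genes in normalized counts, and is the only gene whose red points all lie above the blue ones. Whether these values are corrected for gene length is not known here.

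Lpl, which separated the microglia by age, was at 46.5, 36.9 and 53.6 normalized counts at 6 months and at 43.2, 71.1 and 38.0 at 18 months. The older samples lay on both sides of the younger ones (change 0.11 ± 0.36, SE; 95% interval -0.66 to 0.89; limma, adjusted p = 0.978). Abca1 was at 24.3, 30.3 and 31.4 and then at 19.8, 32.3 and 26.3 (change -0.15 ± 0.46, SE; limma, adjusted p = 0.978). Abcg1 was at 133.8, 112.8 and 119.6 and then at 156.8, 116.3 and 103.7 (change 0.02 ± 0.23, SE; limma, adjusted p = 0.994). The ages overlapped fully for both transporters.

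Lrp1 was at 176.7, 134.9 and 123.3 normalized counts at 6 months and at 213.9, 255.9 and 115.3 at 18 months. In the older group, replicates 1 and 2 lay above all younger samples and replicate 3 below them (change 0.37 ± 0.27, SE; limma, adjusted p = 0.917). Nceh1 had the same arrangement, at 96.3, 96.2 and 140.0 and then at 168.7, 174.3 and 79.5 (change 0.28 ± 0.30, SE; limma, adjusted p = 0.931). Soat1 was at 82.5, 47.1 and 24.8 and then at 50.9, 110.1 and 57.8 (change 0.57 ± 0.43, SE; limma, adjusted p = 0.917). Its younger samples alone differed more than 3-fold. Plin2 was low, at 6.51, 15.2 and 14.3 and then at 8.36, 17.8 and 27.6 (change 0.48 ± 0.70, SE; limma, adjusted p = 0.947). Npc2 was at 86.8, 64.7 and 76.6 and then at 80.8, 85.0 and 64.4 (change 0.01 ± 0.27, SE; limma, adjusted p = 0.997). The ages overlapped in all 5 of these genes.

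On the log2(normalized count + 1) scale, 8 of the 9 members were higher at 18 months, against 47.2% of all tested genes. Their median log2 change was 0.28 against -0.04. The highest of the 6 levels was in 18 month replicate 2 for 6 of the 9 members. That sample also held the highest sum of choroid plexus markers, 12896.2 normalized counts, where the others ranged from 356.6 to 9113.2. The part of the amount of choroid plexus in these values was not tested.

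**Figure D5:**
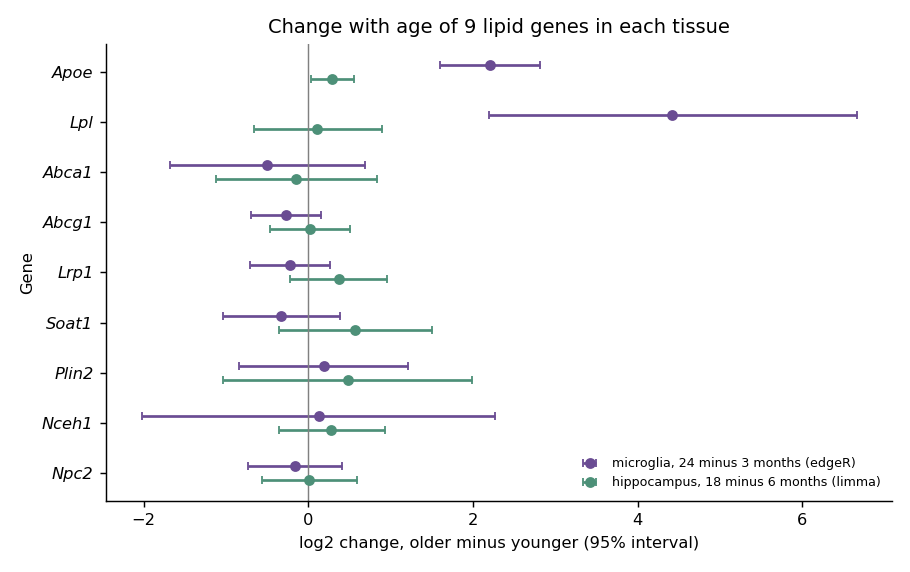
Log2 change with age of each gene, older minus younger, with 95% intervals, for microglia (24 minus 3 months, edgeR) and whole hippocampus (18 minus 6 months, limma). The intervals of Apoe in both tissues and of Lpl in microglia lie above 0, and all others span 0.

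The ages and scales of the 2 tissues differ, so their changes stand side by side without a test. Apoe had a log2 change of 2.21 in microglia and 0.29 in hippocampus, and Lpl of 4.42 and 0.11. Lrp1 and Soat1 had lower means in old microglia (-0.22 and -0.33) and higher means in old hippocampus (0.37 and 0.57), with intervals that span 0 in each case.

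Of the 118 listed genes 94 were tested in hippocampus. On the log2(normalized count + 1) scale 45 were higher and 49 lower, and 0 passed limma's test. Older samples lay wholly above younger ones in 2 of the 94 and wholly below in 4. The shares over all tested genes were 5.03% and 5.93%. Nr1h2 was at 46.1 ± 5.15 and 49.5 ± 0.661 normalized counts (SD, n = 3 each; change 0.11 ± 0.32, SE). Nr1h3 was at 7.87 ± 1.72 and 3.31 ± 1.63, without overlap (change -1.10 ± 0.84, SE; limma, adjusted p = 0.917). Mylip, an LXR target that marks lipoprotein receptors for degradation, was at 16.6, 23.4 and 22.8 when younger and at 8.97, 2.42 and 7.75 when older. It lay lower in all older samples (change -1.70 ± 0.73, SE; limma, adjusted p = 0.901). Stard4, a carrier of cholesterol between membranes, was likewise lower without overlap (change -1.46 ± 0.62, SE; limma, adjusted p = 0.89). Rxrg, a partner of LXR, and the corepressor Ncor1 were higher without overlap (1.81 ± 0.81 and 0.54 ± 0.24, SE; limma, adjusted p = 0.909 for both). Clu was at 1220.0 ± 13.1 and 1268.9 ± 70.7, with overlap (SD, n = 3 each; change 0.06 ± 0.12, SE). The genes most like Apoe over the 6 samples, among 9877 of at least 10 normalized counts, were Psmd3 (0.0526), Mrpl17 (0.0536), Snrpd2 (0.0606), Npy2r (0.0657) and Eif2ak1 (0.0678), where the median was 0.483.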

How the data were processed

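RNA of 12 samples was sequenced. Per the labels' protocols, 5 ng of Trizol-isolated RNA was reverse transcribed with oligo-dT and a template switch, amplified in 12 PCR cycles and tagmented, with no molecular identifiers or strand-keeping kit named. Reads of overlapping antisense genes cannot be separated. As tools the submitters' processing notes list kallisto, DESeq and DESeq2 (no versions), and as builds both mm10 and GRCm39; which build belongs to which file is not given in the sources used here.

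The deposited microglia file holds, per its header, the authors' estimated counts, TPM values and mean transcript lengths. TPM described levels and was not tested. For each tissue the authors deposited a table with normalized counts (a signal scaled between samples), log2 fold changes with standard errors, a Wald statistic (a score, not used here) and p-values, per the file headers. The deposited hippocampus log2 values are 6 over 18 months, judged from the sample columns, and were turned to older minus younger like all others.

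Estimated counts were rounded and tested with edgeR 4.0.16 (R 4.3.3; quasi-likelihood, TMM, filterByExpr). SE is the log2 change over the root of the F statistic. The hippocampus table holds no counts, so limma 3.58.1 with a mean trend was run on log2(normalized count + 1), for genes of at least 1 in at least 3 samples. Such folds understate the change of low genes. Tests were two-sided, with Benjamini-Hochberg adjustment over all tested genes and a threshold of 0.05. The edgeR and limma fits were also run on simulated data with the same spread set for every gene. That run checks the code and not the power in these data. Alternatives were DESeq2 1.42.0, other scalings, filters and pseudocounts, a length offset, the replicate number as a block, and samples left out. Each tissue was fitted alone.

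The blank entry (0.0546% to 0.0771% of microglia counts, 0.0233% to 0.0335% of the hippocampus signal) was left out. The hippocampus columns sum to 974372 to 1002839 normalized counts, so the read depth there is unknown. Named genes are the 9 members, Nr1h2, Nr1h3, Clu, Lipa and Npc1 whatever their result, those taken from the up to 3 tested genes with the smallest p of each of the 7 lists, and the 5 most like Apoe. Part of the genes named by this rule is not reported here. The members and lists were chosen with earlier results of these data known. Gene positions and transcripts are from GENCODE M21 (GRCm38), which may differ from the annotation the authors used.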

Additional observations from a re-analysis of the deposited data

How the results depend on the processing

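In microglia, DESeq2 called 192 genes higher, 56 lower and 2 members, Apoe (2.19) and Lpl (4.42), where edgeR called 0. Leaving out 1 library at a time, or replicate 1 of both ages, gave 0 to 50 genes called higher, 0 to 5 lower and 0 to 1 members. The calls came without 24 month replicate 3 (50 higher, 5 lower), where Apoe passed at 1.95. Under these settings Apoe ranged from 1.95 to 2.36 with 1 library left out (2.41 without replicate 1 of both ages) and Lpl from 3.96 to 5.12. Members wholly above numbered 2 to 4 (4 without 3 month replicate 1, and 4 without replicate 1 of both ages), and wholly below 0 to 3 (3 without 24 month replicate 3, 1 without 3 month replicate 3, 1 without replicate 1 of both ages). Fewer libraries separate more easily, and the share over all tested genes was not counted under these settings. These member counts therefore cannot be read as a result about the members. Signs reversed for Abca1 (-0.87 to 0.18; 0.05 without replicate 1 of both ages), Plin2 (-0.09 to 0.51; -0.09, -0.04 and -0.31 without 3 month replicate 1, 24 month replicate 1 and both), Nceh1 (-0.39 to 1.29; -0.09, -0.39 and -0.11 without 3 month replicates 2 and 3 and 24 month replicate 2) and Npc2 (-0.33 to 0.14; 0.14 and 0.17 without 3 month replicate 1 and both). So did Nr1h2 (-0.18 to 0.05), Srebf1 (0.01), Mertk (-0.04) and Acsl5 (-0.91 to 0.23; 0.27 without both), while Olr1 (4.93) and Insig1 (1.30) passed by DESeq2. The other alternatives changed no member's direction or call.

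In hippocampus, 0 to 1 genes were called higher with 1 sample left out (Lrrc17, without 6 month replicate 1). Members wholly above numbered 0 with TMM scaling and 1 to 3 with a sample left out. The share over all tested genes was not counted under these settings either, so the same limit holds. Signs reversed, each with 1 sample left out, for Lpl (-0.15 to 0.29; -0.03 and -0.15), Abca1 (-0.31 to 0.03), Abcg1 (-0.15 to 0.15; -0.03 and -0.15), Npc2 (-0.10 to 0.13; -0.10, -0.03 and -0.07), Npc1 (-0.37 to 0.45; 0.08), Apod (-0.13 to 0.53) and Acsl1 (-0.01 to 0.63). The causes were not tested.

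Replicate numbers are shared between ages, but deviations of same-numbered samples had r of 0.0649, 0.0117 and -0.027 in microglia and 0.0117, 0.00941 and 0.0142 in hippocampus, so the numbers were not taken to pair samples. With the replicate block edgeR and limma called 0 genes and 0 members, and Apoe changed by 2.19 in microglia (adjusted p = 0.958, edgeR) and by 0.29 in hippocampus (adjusted p = 0.738, limma), and Lpl by 4.65 in microglia. With 3 samples a group the intervals are wide, and depth limits low genes such as Lpl in young microglia.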
